A study of Populus tremula x Populus alba with 3 samples.

Results

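Nuclear photosynthesis genes were examined in apical buds of hybrid poplar that had been through a simulated winter but had not begun to open. They were taken from the authors' deposited table of genes that differ between RNAi lines and wild type. A gene was included when its best Arabidopsis match lies outside the plastid and mitochondrial genomes and when the description of that match names a photosystem, chlorophyll, light harvesting, Rubisco or ribulose, plastocyanin or ferredoxin. This rule took 68 of the 2151 listed genes, in a count table of 41335 genes. The comparison of RNAi lines with wild type had already chosen these genes, so their differences from wild type are given as a description. Where a gene is said to be called, this is its outcome in a fit across all genes tested, and it is no independent evidence on a gene selected this way.

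All plants belonged to INRA clone 717-1B4, a hybrid between Populus tremula and Populus alba that is easily transformed. The wild type (WT) gave 1 library. The PtaDML10 RNAi genotype gave 2 libraries, 1 from line KD2 and 1 from line KD5. PtaDML10 is named after the DEMETER-like enzymes, which remove methylated cytosine from DNA, and the RNAi construct's promoter is not given in the sources used here. Every genotype had the same history. Long days (16 h of light, 21 °C) lasted 4 weeks, short days (8 h, 19 °C) lasted 12 weeks and cold at 4 °C lasted 4 weeks, after which plants went back to long days. From each genotype 15 buds were collected, and nothing states whether they were pooled.

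Photosynthesis in plants runs in the thylakoid membranes of the chloroplast. Antenna proteins bind chlorophyll and pass light energy to photosystem II, which splits water, and to photosystem I, which reduces ferredoxin. Plastocyanin carries electrons to photosystem I. The products of these light reactions drive the Calvin cycle, in which Rubisco fixes carbon dioxide. The reaction centre cores are encoded in the plastid genome, whereas the antenna proteins, many small photosystem subunits and the Rubisco small subunit are encoded in the nucleus. Bud leaves are small and folded, and their chloroplasts mature as the bud opens.

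Library totals ranged from 4509887 to 6829583 counts. Levels are given as CPM, that is, scaled for library size with a TMM factor but not for gene length, so levels of different genes are not compared. Log2 fold changes and their standard errors (SE) come from an edgeR quasi-likelihood fit of both RNAi libraries against WT over 23089 genes, and a gene is said to be called where its p, adjusted by Benjamini-Hochberg, is below 0.05. The single WT library has no replicate, so each difference from WT rests on that library. The SE and the calls use a spread pooled over genes, not the agreement of KD2 and KD5 at each gene. At the locus that published poplar naming gives for PtaDML10, Potri.010G234400, the level was 9.59 CPM in WT, 13.2 CPM in the library labelled KD2 and 17.0 CPM in the library labelled KD5. A lower level of the targeted transcript was therefore not seen, gene counts do not separate reads of the RNAi construct, and the names KD2 and KD5 stand below for the libraries with those labels, whatever the state of the target.

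The 68 genes together held 2.13% of all counts in WT (Wilson 95% interval 2.12 to 2.14%), 1.25% in KD2 (1.24 to 1.26%) and 1.32% in KD5 (1.31 to 1.33%). These intervals cover counting error only. Their summed level was 23666 CPM in WT, 11863 in KD2 and 12711 in KD5, so that KD2 stood at 50.1% and KD5 at 53.7% of WT. Both RNAi libraries lay below WT for 66 of the genes and above it for 2, where 38.4% of all genes tested lay below in both and 40.1% above in both. Of the 2060 other listed genes that were tested, 1298 lay below in both and 756 above in both. In bulk buds, fewer green cells and less RNA per cell cannot be told apart.

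Of the 68 genes 64 were called lower and 2 higher, against 8.05% of all genes tested called lower and 5% called higher. Of the 2060 other listed genes that were tested, 58.4% were called lower and 31.7% higher. Nothing is read from these shares, or from the calls by group below, because the list was selected on the same contrast. With libraries scaled by size only, 59 members were called lower and 2 higher, against 4.23% and 13% of all genes tested. The DESeq2 Wald test gave an adjusted p for 53 of the 68 members and called 39 lower and 1 higher, against 6.91% and 0.566% of the genes to which it gave one. Requiring at least 2-fold left 26 lower and 2 higher, against 1.97% and 2.03%. Without a filter on low counts edgeR called 0 of them, with 67 at an unadjusted p under 0.05, and 0% of all genes. The median log2 fold change of the members was -0.90, with quartiles of -1.18 and -0.78, and that of all genes tested was 0.02. At least 2-fold lower levels in both RNAi libraries were found for 24 of the 68 genes, and for 2.17% of all genes tested. They were also found for 353 of the 2060 other listed genes.

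**Figure D1:**
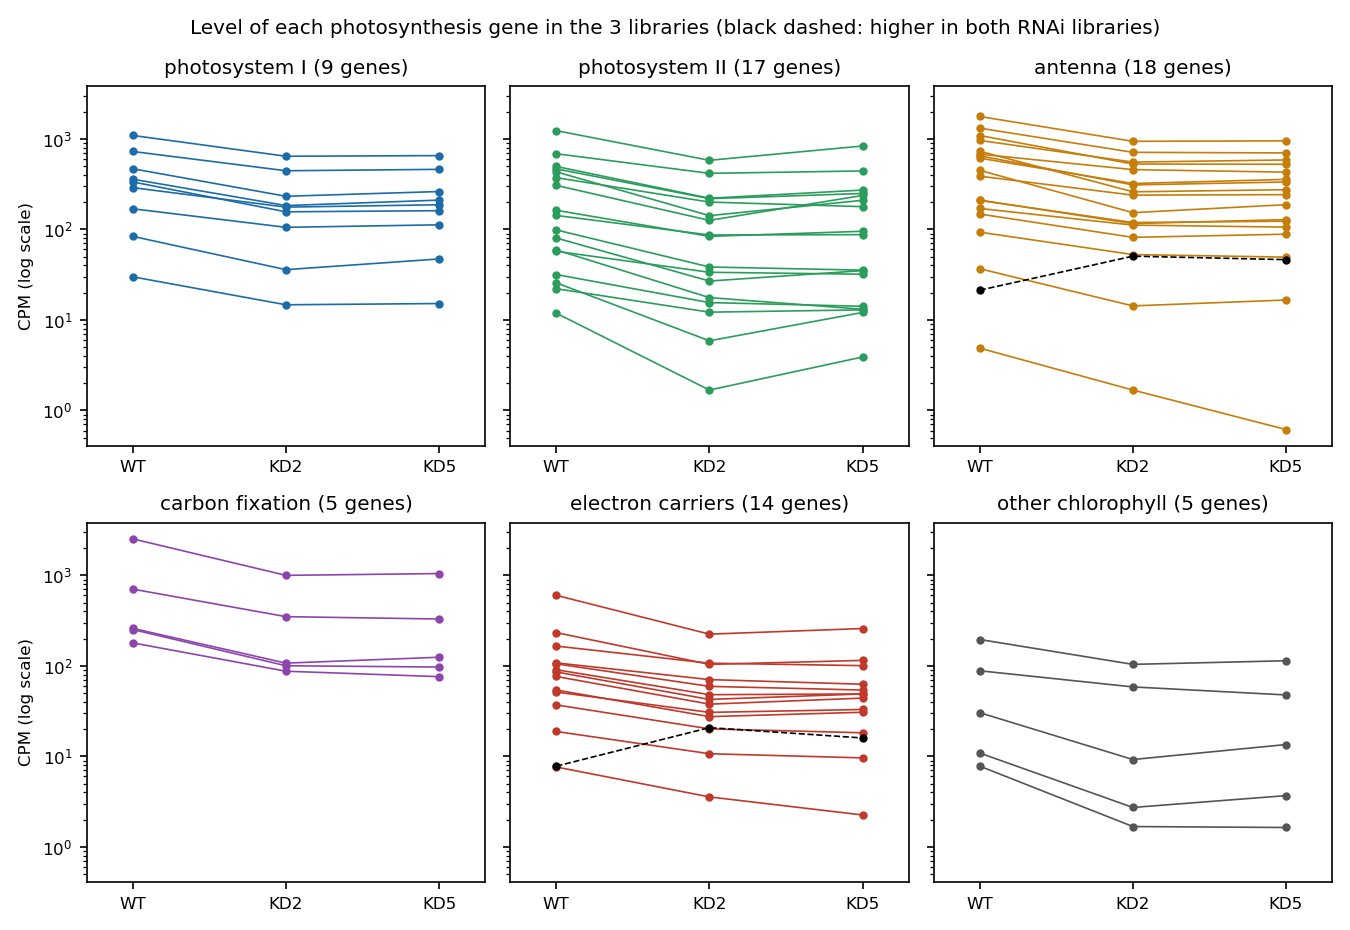
CPM of each of the 68 genes in the 3 libraries on a log axis, 1 line per gene, in 6 groups of genes. All but 2 lines drop from WT to both RNAi libraries. The exceptions, dashed in black, are a copy of LHCA3 and a gene described as a ferredoxin hydrogenase.

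Photosystem I was represented by 9 genes for the subunits D, E, G, H, K, L and O. All 9 were called lower, where 8.05% of all genes tested were. Log2 fold changes of the 9 lay in a narrow band from -1.08 to -0.63 with a median of -0.86. Their summed level was 3549 CPM in WT, 1991 in KD2 and 2109 in KD5, or 56.1% and 59.4% of WT. After loess normalization, an alternative that removes the trend of change with level over all genes, the group's median was -0.51. In that fit 5 of the 9 were called lower, against 4.75% of all genes tested. PSAL (-0.20), PSAH-2 (-0.19), PSAG (-0.34) and the PSAK copy Potri.006G254200 (-0.41) then lost their calls.

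Subunits L, H and O lie on the side of photosystem I where mobile antenna can dock. PSAL (Potri.014G175600) stood at 1091 CPM in WT, 643 in KD2 and 653 in KD5. PSAH-2 (Potri.003G052500) stood at 725 CPM in WT, 444 in KD2 and 461 in KD5. The RNAi libraries were close to each other and well below WT for both genes. PSAO had 2 copies, lower by similar factors. Potri.004G199400 went from 334 CPM in WT to 156 in KD2 and 161 in KD5, and Potri.009G160800 from 29.9 to 14.7 and 15.2 CPM.

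Subunits D and E face the stroma and help ferredoxin to dock. PSAD-2 (Potri.010G089400) had 358 CPM in WT, 183 in KD2 and 210.5 in KD5, and PSAE-2 (Potri.002G253800) had 468, 232 and 262 CPM. Both were somewhat lower in KD2 than in KD5. Subunits G and K sit beside the antenna. PSAG (Potri.001G471900) had 289 CPM in WT and a mean of 182 ± 7.76 CPM over KD2 and KD5 (SD, n = 2). The log2 fold changes of the PSAK copies were -0.63 (SE 0.17) at Potri.006G254200 and -1.01 (SE 0.19) at Potri.018G027600.

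Photosystem II was represented by 17 genes, all called lower, where 8.05% of all genes tested were. The 17 had a median of -0.995 on the log2 scale and a range from -2.08 to -0.67. Their summed level went from 4683 CPM in WT to 2225 in KD2 and 2763 in KD5, or 47.5% and 59.0% of WT. The gap between the RNAi lines was wider than for photosystem I. After loess normalization 14 were called lower, against 4.75% of all genes tested. The calls lost were PSBP-1 (Potri.005G206700) at -0.19 and the PSBR copies Potri.001G438800 at -0.24 and Potri.011G142300 at -0.44. With DESeq2 the calls lost were those PSBR copies, the 5 kD gene Potri.001G256900, PSBY (Potri.010G052000) and the PSBW copy Potri.002G044300.

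PSBR, a small subunit that helps to hold the oxygen-evolving proteins, matched 5 poplar genes. Potri.001G438800 stood at 1233 CPM in WT, 579.7 in KD2 and 834 in KD5. Potri.011G142300 stood at 306 CPM in WT, 126 in KD2 and 237 in KD5. In both of these copies KD5 lay between KD2 and WT. Potri.001G438700 had 98.7 CPM in WT, 38.4 in KD2 and 35.5 in KD5, and Potri.011G142200 had 59.3, 17.6 and 13.1 CPM. In these copies KD5 was no higher than KD2. Potri.001G438600 rested on 73 counts in WT, 8 in KD2 and 19 in KD5. The log2 fold changes of the 5 copies ran from -0.76 (SE 0.16) to -2.08 (SE 0.45). How the authors' counting dealt with reads that fit several copies is not given in the sources used here, so the split between copies is uncertain. Summed over the 5 copies, the level was 1709 CPM in WT, 763 in KD2 and 1123 in KD5.

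The genes described as photosystem II 5 kD protein, a small thylakoid protein, showed the same order of libraries as those leading PSBR copies. Potri.001G256900 stood at 432 CPM in WT, 142 in KD2 and 209 in KD5. Potri.009G052500 stood at 25.7 CPM in WT, 5.88 in KD2 and 12.1 in KD5. Their log2 fold changes were -1.30 (SE 0.16) and -1.51 (SE 0.27).

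The other 10 photosystem II genes were below WT in both lines, and for 5 of them the counting interval of the ratio of KD5 to KD2 excluded equal levels. PSBP-1 (Potri.005G206700), a protein of the oxygen-evolving complex, went from 685 CPM to 416 in KD2 and 442 in KD5. The small membrane subunits PSBX (Potri.006G144000) and PSBW (Potri.005G218800) had 495 and 466 CPM in WT. In the RNAi libraries their means were 246 ± 36.0 and 234 ± 21.7 CPM (SD, n = 2). PSBY (Potri.010G052000) was among the least changed, at a log2 fold change of -0.71 (SE 0.17). Both copies of PSB27, an assembly and repair factor, were lower, Potri.005G206200 by 2.59-fold and Potri.002G056300 by 2.14-fold. The former stood at 26.9 CPM in KD2 and 35.0 in KD5, and the latter at 15.5 and 14.1 CPM. PSBS (Potri.002G083500), also called NPQ4, is the protein that switches on heat dissipation in excess light. It had 373 CPM in WT, 200.3 in KD2 and 178 in KD5, and unlike the PSBR and 5 kD genes named first it was lower in KD5 than in KD2.

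Of 18 antenna genes 16 were called lower and 1 higher, against 8.05% and 5% of all genes tested, and 1 was not called. Their median log2 fold change was -0.86, and their summed level stood at 52.7% of WT in KD2 and 53.9% in KD5. After loess normalization the median was -0.53, with 9 called lower and 1 higher, against 4.75% and 3.47% of all genes tested. The 7 antenna genes that then lost their calls were LHCB2.2 (-0.28), Potri.011G079500 (-0.32), LHCA3 at Potri.014G172400 (-0.22), LHCA4 (-0.12), LHCA1 at Potri.010G221100 (-0.40), LHCB4.2 (-0.30) and the LHCB3 copy Potri.011G126700 (-0.42). LHCB1, LHCB2 and LHCB3 form the trimers of the main light-harvesting complex of photosystem II. The LHCB2.2 match (Potri.002G221400) went from 1767 CPM in WT to 939.5 in KD2 and 951 in KD5. Of the LHCB1 genes, Potri.011G079500 went from 1314 to 709.8 and 699 CPM. Potri.005G239200, matched to CAB1, and Potri.005G239300 changed more, with log2 fold changes of -1.45 (SE 0.15) and -1.40 (SE 0.16) against -0.90 (SE 0.14) for Potri.011G079500. The LHCB3 copies were lower by less, at -0.79 (SE 0.16) and -0.65 (SE 0.17).

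LHCB4, LHCB5 and LHCB6 are single antenna proteins that link the trimers to the photosystem II core. LHCB6, also called CP24, had 2 copies that behaved alike. Potri.003G020400 stood at 1089 CPM in WT, 527 in KD2 and 524 in KD5, and Potri.001G210000 at 649.8, 310.1 and 334 CPM. The matches of LHCB4.2 (Potri.006G099500) and LHCB4.3 (Potri.008G067300) were at log2 fold changes of -0.69 and -0.80. The LHCB5 copies were at -0.79 (Potri.019G063100) and -1.25 (Potri.T099400).

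The antenna of photosystem I is built from LHCA proteins. LHCA4 (Potri.015G062200) was the least changed of the antenna genes, from 678 CPM in WT to 457 in KD2 and 429 in KD5. LHCA1 (Potri.010G221100) went from 612 to 321 and 357 CPM. A further LHCA1 gene, Potri.008G041000, had 30, 8 and 3 counts in WT, KD2 and KD5 and was not called in this fit, although the authors' deposited table lists it.

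The copies of LHCA3 went opposite ways. Potri.014G172400 stood at 962 CPM in WT, 554 in KD2 and 585 in KD5. Potri.014G198400 stood at 21.3 CPM in WT, 50.6 in KD2 and 46.3 in KD5, a rise of 2.28-fold with both RNAi libraries above WT. Its counts were 131, 241 and 226, and its log2 fold change was 1.18 (SE 0.22). Since the rising copy carries few of the counts, the summed level of both was 983 CPM in WT, 604 in KD2 and 631 in KD5.

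Carbon fixation was represented by 5 genes. All of them were called lower, against 8.05% of all genes tested, and all were at least 2-fold lower in both RNAi libraries, against 2.17%. The group's summed level stood at 41.9% of WT in KD2 and 42.6% in KD5, the lowest percentage of WT among the 6 groups in both lines. By the median log2 fold change the genes named for chlorophyll were lower, at -1.41 against -1.16. After loess normalization the carbon fixation median was -0.90. In that fit Potri.004G100000 alone stayed past 2-fold, at -1.12, with Potri.017G114600 at -0.66 and Potri.018G091400 at -0.59. The Rubisco small subunit is made from nuclear genes. Potri.017G114600, described as a small chain family protein, had 2531 CPM in WT, 1000.2 in KD2 and 1047 in KD5. The RBCS1A matches went from 705 to 349.8 and 329.6 CPM (Potri.018G091400) and from 252 to 100.4 and 97.1 CPM (Potri.004G100000). Rubisco activase (RCA), which frees blocked Rubisco active sites, had 2 copies. Potri.008G058500 went from 259.6 to 107 and 125 CPM, and Potri.010G200500 from 179 to 87.3 and 76.0 CPM. Their log2 fold changes of -1.16 (SE 0.16) and -1.14 (SE 0.17) were nearly equal.

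Electron carriers and ferredoxin-related genes numbered 14, of which 12 were called lower and 1 higher, against 8.05% and 5% of all genes tested. The leaf-type ferredoxin FED A matched Potri.004G218400, at 602 CPM in WT, 224 in KD2 and 259 in KD5, and Potri.003G015200, at 233, 104 and 115 CPM. The plastocyanin PETE1 changed less, with log2 fold changes of -0.67 (SE 0.17) at Potri.005G246100, where the call was lost after loess normalization (-0.46), and -0.89 (SE 0.18) at Potri.002G016000. FTRA2 (Potri.010G255500), a subunit of the reductase through which ferredoxin activates thioredoxins, had 108 CPM in WT and a mean of 66.6 ± 5.54 CPM over KD2 and KD5 (SD, n = 2).

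Not every gene taken by the word ferredoxin is known from photosynthesis. FD3, a ferredoxin known from roots in Arabidopsis, matched 2 genes at -0.90 (Potri.010G239100) and -0.89 (Potri.004G202500). Potri.006G017000, described as a ferredoxin hydrogenase, stood at 7.80 CPM in WT, 20.8 in KD2 and 16.0 in KD5. It had 48, 99 and 78 counts and a log2 fold change of 1.23 (SE 0.31). Potri.001G369300 is described only as sucrase or ferredoxin-like and went from 51.4 to 30.7 and 33.0 CPM. Without these last 2 genes the median log2 fold change of the remaining 66 was -0.90. Those 66 still hold the FD3 genes and the AT3G07480 matches Potri.002G239000 and Potri.014G177100. The AT3G07480 matches are described only as ferredoxin-like, which does not place them in photosynthesis. Potri.010G087300, a ferredoxin-like gene with 47, 17 and 11 counts, was not called.

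The remaining 5 genes are named for chlorophyll, and all were called lower, against 8.05% of all genes tested. PORC (Potri.013G135500), which makes chlorophyllide in the light, had 196 CPM in WT, 104 in KD2 and 114 in KD5. PIFI (Potri.001G204300), known in Arabidopsis for electron flow through the chloroplast NDH complex, had 88.3, 58.6 and 47.8 CPM. HCF153 (Potri.001G022500), needed in Arabidopsis for the cytochrome b6f complex, had 30.4, 9.24 and 13.5 CPM. The matches of ELIP1, an early light-induced protein that protects against excess light, had few counts. Potri.008G157900 had 67, 13 and 18 counts in WT, KD2 and KD5, and Potri.008G158200 had 48, 8 and 8. Their log2 fold changes of -1.75 (SE 0.45) and -2.22 (SE 0.58) have wide errors.

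The authors' deposited table gives each gene a false discovery rate, and genes enter it below 0.05. Next to that limit, the authors' deposited table has Potri.001G369300 at 0.044, the PsbP family gene Potri.005G256600 at 0.041 and the PSAK copy Potri.006G254200 at 0.039. Photosynthesis genes outside the table carry no description in the files and were not analysed here.

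Poplar often has several copies of a gene for each Arabidopsis gene. The 68 genes matched 44 Arabidopsis loci, and 45 of them shared a locus with at least 1 other member, in 21 loci. Copies of 1 locus lay within 0.25 of each other on the log2 scale in 11 of these loci, and more than 0.5 apart in 4. The wide ones were LHCA3 (1.94 apart), PSBR (1.32), LHCA1 (1.22) and the LHCB1.4 locus (0.50). LHCA3 was the single locus with copies on both sides of 0. Copies of CP24, RCA, FD3 and of AT3G07480, a ferredoxin-like locus, differed by 0.04 or less.

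**Figure D2:**
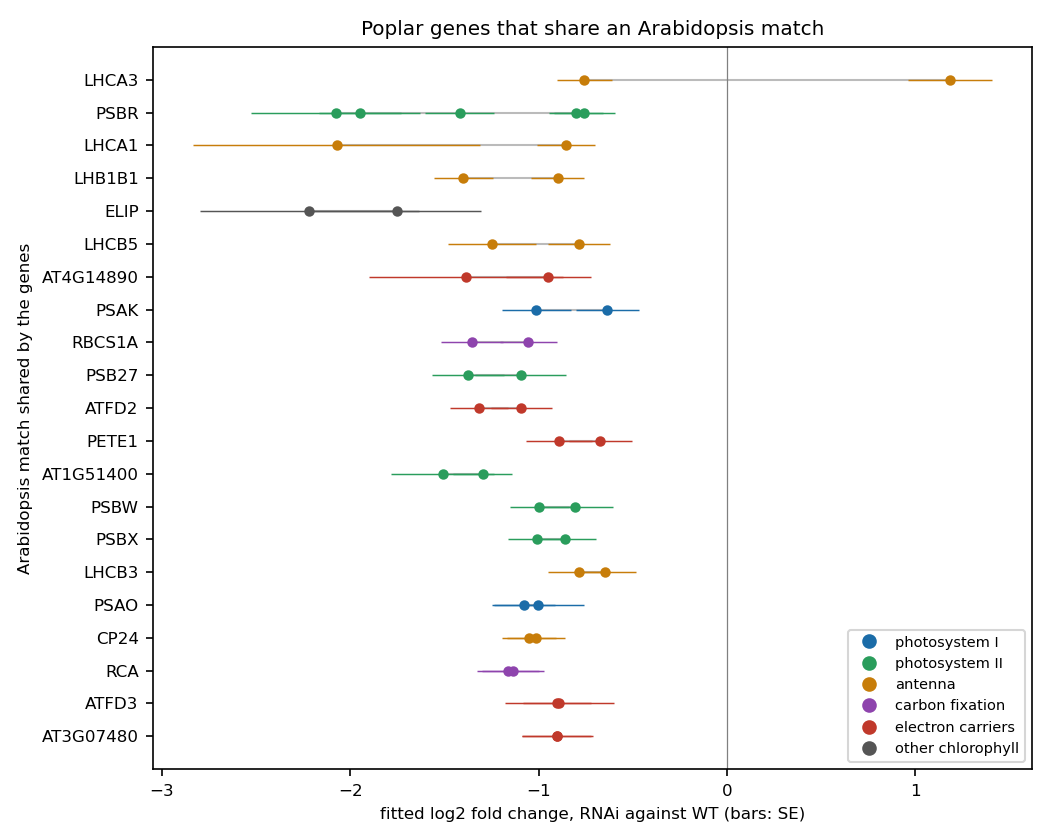
Fitted log2 fold change of RNAi against WT, with its SE, for the 45 genes that share an Arabidopsis match with another member, 1 row per match. Copies lie close together in most rows, and the LHCA3 row alone has a copy above 0.

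Change went with level over the whole set of genes tested, and the photosynthesis genes sit mostly at high levels, with 43 of 68 at 64 CPM or more. Among all genes tested from 64 CPM to 4 times that level, the median log2 fold change was -0.15 and 21.7% were called lower. Above that range the median was -0.43 and 50.9% were called lower. The 22 members in the former range had a median of -0.82 and the 21 in the latter -0.92. In the upper range, all 21 members lay below the median of the other genes at that level, and 17 lay below their lower quartile of -0.72. From 16 to 64 CPM, where the median of all genes was 0.03, the 16 members had a median of -0.98. The members were listed because they differ, so these values only place them on that scale. The part of the trend with level in these differences was not tested. After loess normalization 49 members were called lower and 2 higher, against 4.75% and 3.47% of all genes, and the members' median was -0.68.

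**Figure D3:**
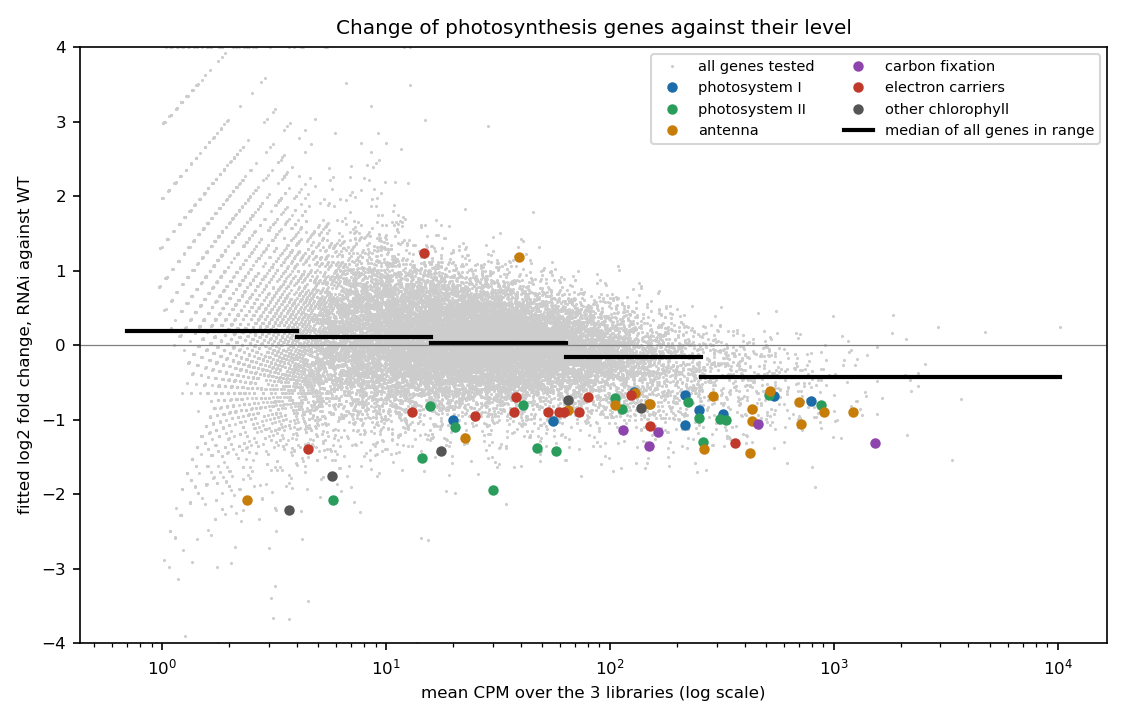
Fitted log2 fold change of RNAi against WT against mean CPM over the 3 libraries (log axis), with all genes tested in grey, the 68 photosynthesis genes in colour by group, and black bars for the median of all genes in each range of level. Values beyond 4 are drawn at 4. The bars step down from 0.20 below 4 CPM to -0.43 in the highest range, and nearly all coloured points lie below them.

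KD2 and KD5 were then set side by side, each with 1 library and therefore without a test. Ratios are given with exact 95% intervals that cover counting error only. The summed level of the members was 1.07 times as high in KD5 as in KD2 (interval 1.06 to 1.08), and the median log2 ratio of KD2 to KD5 was -0.07, against 0.00 for all genes tested. Among genes at 4 times 64 CPM or more, the median was -0.08 for members and -0.07 for the other genes, and after loess normalization the median over all members was -0.015. KD5 was above KD2 for 44 of the 68 genes, and KD2 lay below KD5 for 49.9% of all genes tested. The interval excluded equal levels for 21 members, with KD5 higher in 18 and KD2 higher in 3, against 10.8% and 9.48% of all genes tested. Such intervals narrow with level. Of the 43 members at 64 CPM or more, KD5 was higher in 15 and KD2 in 3, against 23% and 14.9% of all genes at that level.

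By group, the ratio of KD5 to KD2 was 1.02 (interval 1.01 to 1.04) for the antenna, 1.02 (0.987 to 1.05) for carbon fixation and 1.04 (0.999 to 1.09) for the electron carriers. For photosystem I it was 1.06 (1.03 to 1.09). There KD5 was above KD2 in 9 of 9 genes, against 49.9% of all genes tested, and 3 intervals excluded equal levels. Photosystem II stood at 1.24 (1.21 to 1.27). Much of that came from the 7 PSBR and 5 kD genes, whose ratio was 1.48 (1.42 to 1.53). The other 10 photosystem II genes were at 1.08 (1.04 to 1.12). This division was made after the values were seen.

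Single genes differed more. The PSBR copy Potri.011G142300 was 1.88-fold higher in KD5 than in KD2 (interval 1.71 to 2.08) and Potri.001G438800 1.44-fold higher (1.37 to 1.51). The 5 kD genes Potri.001G256900 and Potri.009G052500 were 1.48-fold (1.34 to 1.63) and 2.06-fold (1.29 to 3.35) higher in KD5. The ratio was 0.923 (0.745 to 1.14) for Potri.001G438700 and 0.744 (0.529 to 1.04) for Potri.011G142200, both PSBR copies. Among members of at least 16 CPM, 1 of 59 was at least 1.5-fold higher in KD5, where 2.07% of all genes tested at that level were, and 0 of 59 were at least 1.5-fold higher in KD2, where 1.29% of all were. PSBS (0.890, 0.811 to 0.977), PIFI (0.815, 0.682 to 0.974) and LHCA4 (0.937, 0.882 to 0.996) were the members lower in KD5 with an interval that excluded equal levels.

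**Figure D4:**
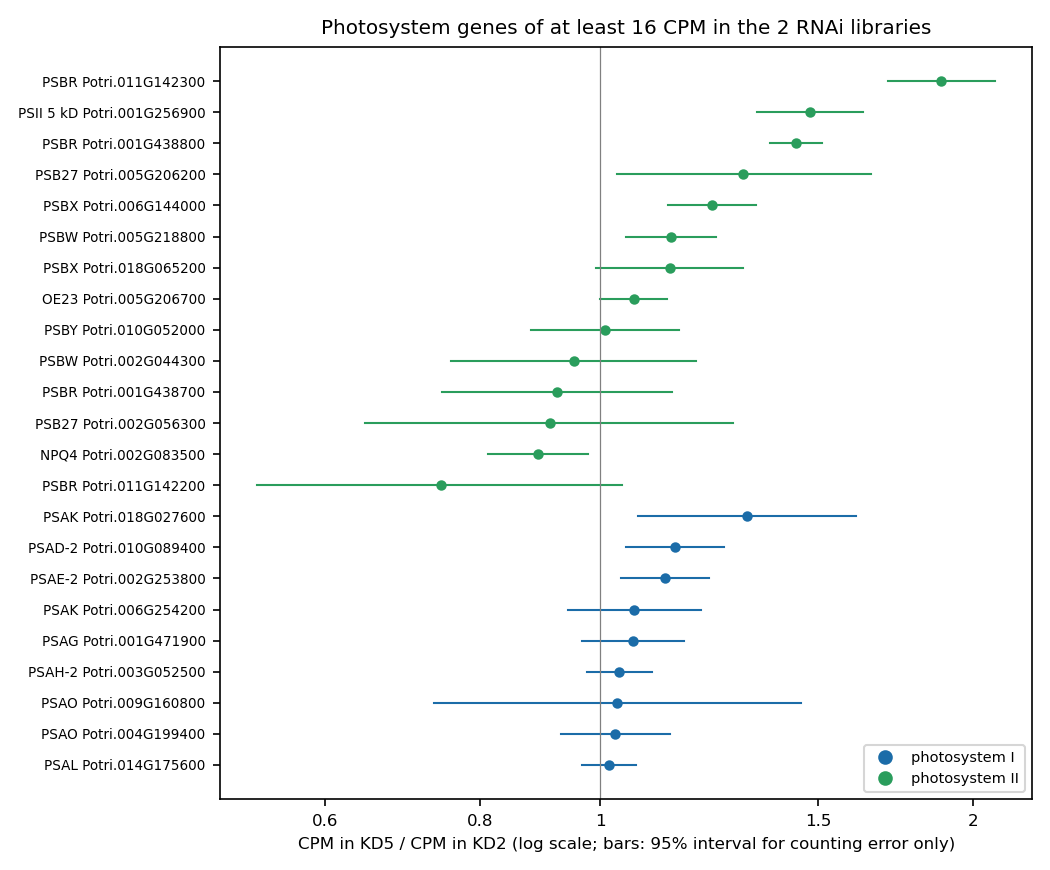
Ratio of CPM in KD5 to CPM in KD2 (log axis) for the 14 photosystem II and 9 photosystem I genes of at least 16 CPM, with 95% intervals for counting error only. A copy of PSBR leads at 1.88, and 2 further PSBR copies lie below 1, while all 9 photosystem I genes lie to the right of 1. For 3 of these 9 the interval excludes 1.

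Other genes of the pathway were looked up among the listed genes by their descriptions, with the same limit that the authors had selected them. Of all genes tested 8.05% were called lower, and of the listed genes tested outside the photosynthesis set 58.4% were. For chlorophyll synthesis 1 gene was listed, the magnesium chelatase subunit CHLH (Potri.006G051100), at 88.9 CPM in WT, 53.1 in KD2 and 48.8 in KD5. For the cytochrome b6f complex and cyclic electron flow 2 of 2 were called lower, the petM subunit (Potri.014G037000) at a log2 fold change of -1.25 and NDH-M (Potri.002G077600) at -0.81. Of 4 Calvin cycle genes 3 were called lower. The aldolase FBA2 was at -1.29 (Potri.004G162400) and -0.86 (Potri.009G124100) and the dehydrogenase subunit GAPB (Potri.005G254100) at -0.98. Phosphoribulokinase (Potri.001G134000), at -0.99 with 71, 26 and 30 counts, was not called.

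Photorespiration recycles the product that Rubisco makes with oxygen. Against 8.05% of all genes tested, 3 of 4 listed genes found by names of its enzymes were called lower. These were an alanine:glyoxylate aminotransferase (Potri.009G047700) at -0.92, a glycine cleavage T-protein gene (Potri.011G006800) at -0.72 and the glycine decarboxylase P-protein (Potri.006G229300) at -0.70. The match of SHM6, a serine hydroxymethyltransferase (Potri.001G212000), was called higher, from 9.92 to 21.4 and 19.9 CPM. It was found by the enzyme name only, and its description does not tie this form to photorespiration. The oxygen-evolving complex protein PSBO match (Potri.005G130400) went from 639 to 344 and 372 CPM. Of 11 regulators sought by locus, among them GLK1, GLK2 and HY5, 1 was listed. PIF1 (Potri.002G252800), a factor that holds back chlorophyll synthesis in dark-grown Arabidopsis seedlings, stood at 89.3 CPM in WT, 49.3 in KD2 and 54.7 in KD5.

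Genes that match the plastid genome were left out by the rule. There were 7 of them with the same words in their descriptions, and each was above WT in KD2 and in KD5. Of these 6 were called higher, where 5% of all genes tested were, and they too came from the list selected on this contrast. The match of photosystem II protein H (Potri.011G074800) stood at 0.488 CPM in WT, 3.78 in KD2 and 5.12 in KD5. It had only 3, 18 and 25 counts, so the size of its rise is uncertain. A PsaA/PsaB match (Potri.009G016300) had 72, 198 and 61 counts in WT, KD2 and KD5, so that its higher level rested mostly on KD2. KD2 also lay well above KD5 for Potri.T063100 (15.8, 51.4 and 21.7 CPM) and Potri.013G141800 (9.59, 27.5 and 13.1 CPM). KD5 lay above KD2 for protein H and for the protein M match Potri.013G142100 (4.71, 13.6 and 15.6 CPM).

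Markers of other bud tissues were sought by locus. The meristem gene STM matched 2 listed genes, the epidermal genes LTP1 and PDF1 matched 5, CESA7 of xylem 1 and the phloem locus AT3G01680 4. Of these 12 genes 11 were called lower, against 8.05% of all genes tested. The 12 were selected on the same contrast, and 58.4% of the listed genes tested outside the photosynthesis set were called lower. Their summed levels in WT, KD2 and KD5 were 235, 106 and 145 CPM for meristem, 2550.3, 1439 and 1252 CPM for epidermis, 15.1, 5.25 and 6.97 CPM for xylem, and 70.6, 30.7 and 37.1 CPM for phloem. The other loci sought, among them WUS, CLV3, ATML1 and SUC2, were not listed and so carry no name in the files. The part of tissue make-up in the lower levels of photosynthesis genes was not tested.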

How the data were processed

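The deposited table of raw counts holds 41335 poplar genes in 3 libraries, made with TopHat, FastQC and edgeR per the submitters' processing notes. For the counting program, build and versions no source used here gives a name. The authors' deposited table gives log2 fold changes, mean log2 CPM, p-values and FDR, per the file headers. Counts were fitted with edgeR 4.0.16 in R 4.3.3 (filterByExpr with a minimum count of 10, TMM, quasi-likelihood F-test, Benjamini-Hochberg over 23089 genes). The fit has 1 residual degree of freedom, from KD2 against KD5, and WT is assumed to vary like them. P-values of this fit weigh each change against a spread pooled over genes, and that spread comes from these libraries only. The gap between KD2 and KD5 at a single gene was given no weight of its own. At Potri.011G142300 the SE was 0.16, although the log2 ratio to WT was -1.28 in KD2 and -0.37 in KD5. The SE of a log2 fold change is its size divided by the square root of F. The common coefficient of variation was 11.4%.

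Ratios between single libraries used a prior count of 2 on the log2 scale. Members, groups, gene lists and alternatives were chosen with earlier results of these data known. Genes named with values were those with the highest levels and the largest changes in each group, those higher in RNAi, those differing most between lines, those sharing a locus and those next to the listing limit. Alternatives were other scalings, filters, DESeq2 1.42.0 and limma 3.58.1. No gene sequences or reference names were used, so the planned comparison with reference-named photosynthesis genes and the motif search were not made.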

Additional observations from a re-analysis of the deposited data

How the results depend on the processing

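Of the members, 66 were called in either direction over all 3 libraries, 61 to 68 with other scalings by factor, with a mean CPM filter or with limma, and 51 after loess normalization. The count was 40 with DESeq2, 28 with at least 2-fold required and 0 without a filter on low counts. For all genes tested it was 3014, against 1899 after loess normalization, 555 with DESeq2, 924 with at least 2-fold and 0 without a filter, with 5051 at an unadjusted p under 0.05. Of all calls 38.3% were higher, against 75.5% with library size only, 7.57% with DESeq2 and 50.8% with at least 2-fold required. The members' median log2 fold change of -0.90 was -0.68 with library size only, where the median of all genes moved from 0.02 to 0.24, so that relative to all genes it stayed at -0.92. It was -0.68 after loess normalization. It ranged from -0.98 to -0.89 when either RNAi library was left out. No member changed direction under any of these alternatives, and 13 members lost their call with DESeq2, which gave 15 no adjusted p. Calls were lost by 15 members after loess normalization, by 5 with library size only and by 66 without a filter. Between the RNAi lines, the members' median log2 ratio (KD2 over KD5, -0.071) was -0.092 with upper quartile scaling, -0.049 with library size only and -0.015 after loess normalization. The cause of these shifts was not tested. No paired analysis was possible because WT has 1 library and the line names carry no shared replicate number. Alternatives for reference-named genes were not run, since no such names were used. Members under 16 CPM rest on few counts, and their ratios are the least certain.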
